A study of Mus musculus with 12 samples.

Results

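The core circadian clock genes were followed in the livers of mice with and without Socs2, before and after removal of 2/3 of the liver. The set was given as 10 genes, which are Arntl, Clock, Npas2, Cry1, Cry2, Per1, Per2, Per3, Nr1d1 and Nr1d2. A gene was measured by its probe sets annotated to it alone, and where there were several by the probe set with the highest mean of log2(intensity + 16) over the 12 arrays. By this rule 9 of the 10 genes had a value, through 20 probe sets, among 17097 genes in all, and Nr1d1 was not analysed here. All mice were adult C57BL/6 animals, either wildtype or Socs2-null, and Socs2 encodes an inhibitor of growth hormone receptor signalling. Livers were taken at 0 h without an operation, and at 24 h and 36 h after 2/3 hepatectomy, which gave 6 groups. Each group held 2 arrays, each with RNA pooled from 3 animals, so that the spread is between pools and not between animals. The animals at 0 h had no sham operation, and the sources used here give neither the hour of harvest, nor the sex of the animals, nor how the Socs2-null allele was made.

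The circadian clock of the liver is a loop of transcription factors. ARNTL (BMAL1) pairs with CLOCK or with NPAS2 and switches on the Per and Cry genes, whose proteins come back to inhibit that pair. The same pair switches on Nr1d1 and Nr1d2, which encode the REV-ERB repressors, and these hold down Arntl, Npas2, Clock and Cry1, while the ROR factors act on the same sites in the opposite sense. In liver these genes rise and fall with the hour of the day and with feeding, so the activator genes and the REV-ERB genes peak at opposite hours. In this design the hour of harvest and the time after the operation cannot be told apart. The part of the hour of harvest in the differences between the genotypes was not tested.

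The clock factors bind short elements, and the upstream sequences of 4 members are shown because these members moved in different directions with time. They are the 250 bases before a transcription start in RefSeq, build GRCm38.p6, read 5′ to 3′ in the direction of the gene, with the elements searched for in capitals.
Cry1, chr10:85185055-85185304, minus strand: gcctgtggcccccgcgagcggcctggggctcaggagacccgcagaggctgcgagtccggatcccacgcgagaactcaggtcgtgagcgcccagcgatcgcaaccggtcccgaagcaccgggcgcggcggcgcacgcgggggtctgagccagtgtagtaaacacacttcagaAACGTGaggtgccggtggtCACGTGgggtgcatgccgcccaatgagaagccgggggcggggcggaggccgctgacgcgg
Per3, chr4:151044666-151044915, minus strand: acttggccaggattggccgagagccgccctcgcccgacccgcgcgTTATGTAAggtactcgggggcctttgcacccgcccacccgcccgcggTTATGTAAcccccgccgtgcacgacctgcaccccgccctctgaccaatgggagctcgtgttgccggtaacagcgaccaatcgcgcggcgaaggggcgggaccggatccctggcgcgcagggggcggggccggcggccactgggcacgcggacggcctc
Nr1d2, chr14:18239107-18239356, minus strand: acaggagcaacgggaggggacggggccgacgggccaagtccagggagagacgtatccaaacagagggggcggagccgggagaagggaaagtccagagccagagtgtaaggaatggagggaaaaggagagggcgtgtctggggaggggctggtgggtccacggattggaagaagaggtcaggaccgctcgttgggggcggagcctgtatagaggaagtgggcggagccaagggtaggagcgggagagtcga
Arntl, chr7:113207261-113207510, plus strand: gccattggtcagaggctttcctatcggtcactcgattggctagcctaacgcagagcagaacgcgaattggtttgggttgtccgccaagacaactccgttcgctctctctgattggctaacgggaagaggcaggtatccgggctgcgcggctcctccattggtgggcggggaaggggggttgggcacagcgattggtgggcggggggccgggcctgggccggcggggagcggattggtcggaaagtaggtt
In the Cry1 sequence the capitals mark an E′-box, the element CACGTT on the opposite strand, 79 to 74 bases before the start, and an E-box, CACGTG, 60 to 55 bases before it. ARNTL with CLOCK or NPAS2 binds elements of both kinds. In the Per3 sequence the capitals mark the D-box TTATGTAA at 205 to 198 and again at 158 to 151 bases before the start, an element bound by DBP, TEF and HLF. Neither the Nr1d2 nor the Arntl sequence holds any of the letters searched. The ROR and REV-ERB element TAGGTCA lies 30 to 36 bases after this Arntl start.

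The search took both strands of windows from 250 bases before to 50 bases after each start, 13 windows of 9 members, with Per2 not among them. The E-box CACGTG was found in 2 of the 13 member windows, of Cry1 and Per1, and in 7.15% of all 32851 windows. The E′-box CACGTT was found in 3 member windows, of Cry1, Cry2 and Nr1d1, and in 4.68% of all windows. The D-box, TTATGTAA or TTATGCAA, was found in 2 member windows, of Per1 and Per3, and in 1.66% of all windows. The ROR and REV-ERB element was found in 1 member window, of Arntl, and in 2.61% of all windows. The STAT5 element TTCNNNGAA is the kind of site through which growth hormone signalling reaches its targets. It was found in 1 member window, of Per1, and in 8.3% of all windows. The cAMP element TGACGTCA was found in no member window and in 1.79% of all windows. These matches describe letters and do not show binding. In the same build the measured genes lie at chr7:113178471-113314126 (Arntl), chr5:76209868-76305603 (Clock), chr1:39193702-39363240 (Npas2), chr10:85131700-85185054 (Cry1), chr2:92403646-92434085 (Cry2), chr11:69095108-69109965 (Per1), chr1:91415977-91459351 (Per2), chr4:150997018-151044707 (Per3) and chr14:18204056-18239106 (Nr1d2).

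Socs2, which checks the labels, read 116 to 546 on the wildtype arrays and 23.2 to 29.5 on the Socs2-null arrays, under the brightest tag control of each Socs2-null array. By limma Socs2 was called between the genotypes in the mean over the 3 times (-2.63 ± 0.24, adjusted p = 0.0154). At the single times it was not called, with -3.20 (0.213) at 0 h, -2.23 (0.404) at 24 h and -2.46 (0.236) at 36 h. A member not called between the genotypes at 1 time is therefore not shown to be unchanged. The 7 hepatocyte markers listed were above the brightest tag control on all 12 arrays. Array medians ran from 43.5 to 52.3, and the 2 arrays of a group correlated at 0.985 to 0.996 (Pearson's r over probe sets). The hybridization controls, RNAs added before hybridization, moved with time. Their mean log2 intensity was 9.86 to 9.98 at 0 h, 9.34 to 9.90 at 24 h and 9.01 to 9.23 at 36 h. The wildtype arrays at 36 h had 9.21 and 9.07 and the Socs2-null ones 9.23 and 9.01. Neutrophil markers differed in mean level between the groups too. Over the 4 measured, 2 of them above background on all arrays, their mean log2 level in wildtype livers was 6.15 at 0 h, 6.61 at 24 h and 6.77 at 36 h, and in Socs2-null livers 6.20, 7.18 and 6.85. S100a8 and S100a9 averaged 376 and 540 in Socs2-null pools at 24 h against 110 and 152 in wildtype pools. The other measured markers, Elane and Mpo, averaged 116 and 44.6 at 0 h and 82.5 and 29.5 at 24 h in wildtype, and 103 and 40.5 against 78.3 and 29.9 in Socs2-null liver. By limma 0 of the 4 neutrophil markers were called between the genotypes at 0, 24 or 36 h. From 0 h to 24 h, 0 were called higher and 2 lower in wildtype, and 1 higher and 1 lower in Socs2-null liver. Of the red cell markers, Hba-a1 averaged 6887 and 7223 at 0 h and 2793 to 3301 after hepatectomy, and both markers measured were lower than at 0 h by limma in each genotype and at each time. Of 8 Kupffer cell and macrophage markers 2 were higher and 3 lower, of 7 hepatocyte markers 0 were higher and 2 lower, and of 7 sinusoidal endothelial markers 0 were higher and 2 lower at 24 h in each genotype. The part of these cell types in the clock results was not tested, and in whole liver fewer cells of a type and less RNA per cell cannot be told apart.

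In both genotypes Arntl, Clock and Cry1 rose, and Per3 and Nr1d2 fell, from unoperated liver to 24 h after hepatectomy, and Npas2 rose in Socs2-null liver. From 24 h to 36 h Cry1 fell in the wildtype pools. The means of Arntl and Nr1d2 there were lower and higher than at 24 h without passing, and no member was called in the Socs2-null pools. Cry1 at 36 h was the only member called between the genotypes, and no member was called in the test of the difference between the time courses. Changes are given below as log2 change ± standard error of log2(intensity + 16), with the Benjamini-Hochberg adjusted p of limma over all 17097 genes and a threshold of 0.05, and levels as intensity.

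**Figure D1:**
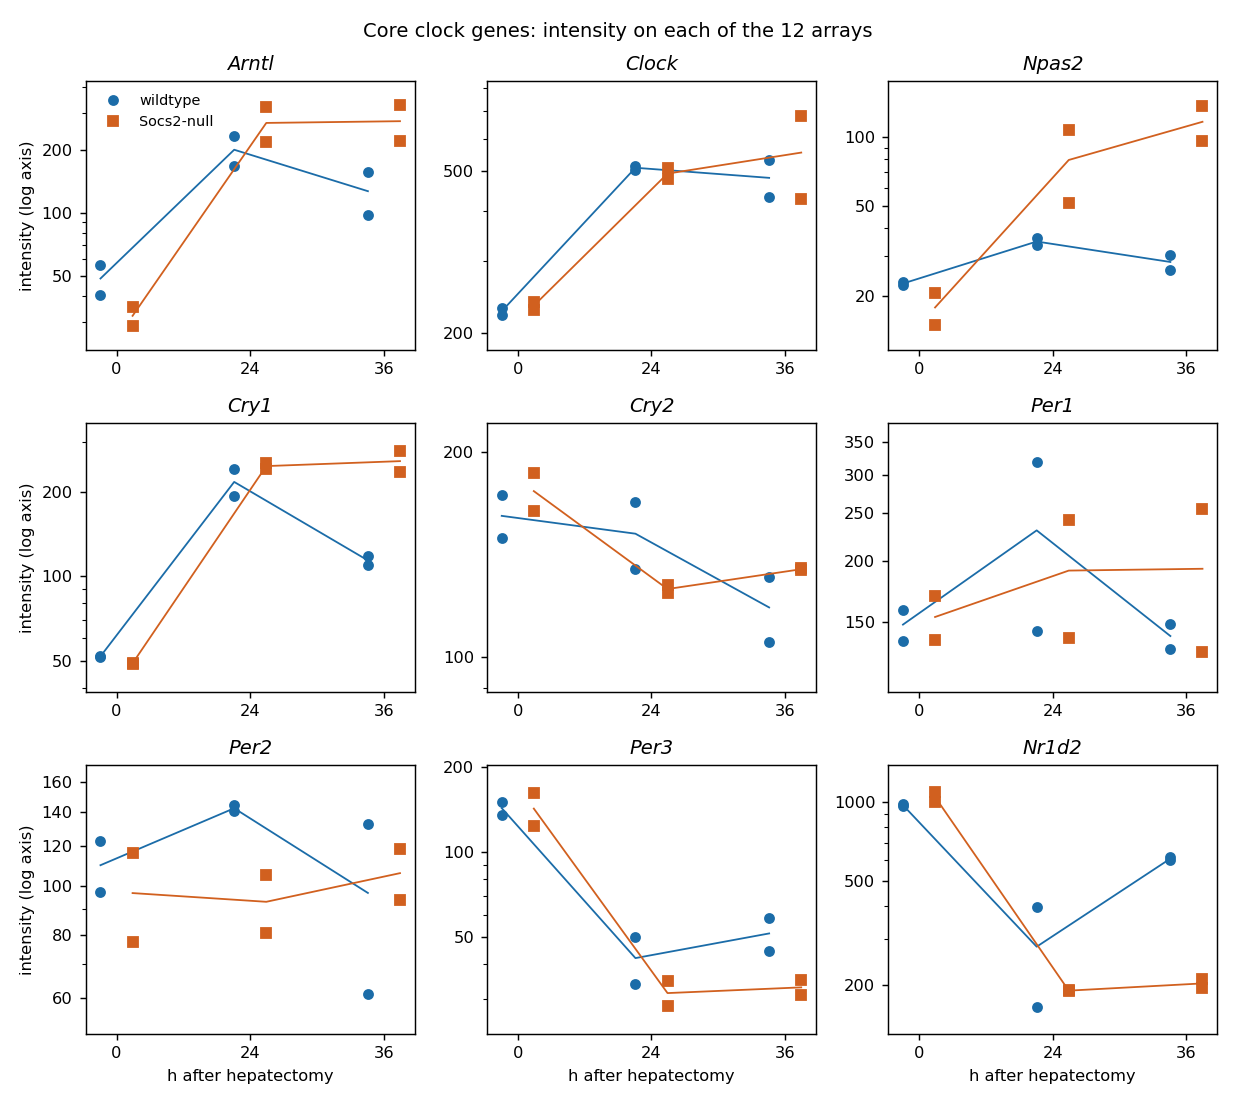
Intensity of the 9 measured core clock genes on each array (log axis, a different range for each gene) at 0, 24 and 36 h after hepatectomy, wildtype as circles and Socs2-null as squares, shifted apart sideways; lines join the means of the 2 arrays of a group. At 36 h the Cry1 circles lie at 110 and 118 and the squares at 234 and 279, and the Nr1d2 circles at 601 and 614 and the squares at 210 and 194.

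Arntl encodes the partner of CLOCK and NPAS2 in the activating pair. Its intensities were 56.3 and 40.5 in unoperated wildtype liver and 28.7 and 35.5 in unoperated Socs2-null liver, and 1 array of each pair lay under the brightest tag control. At 24 h they were 167 and 232 in wildtype and 319 and 217 in Socs2-null pools. All arrays at 24 h were above all arrays at 0 h, and the genotypes overlapped at 24 h. At 36 h the wildtype arrays read 156 and 97.2, below both of their 24 h values, and the Socs2-null arrays 219 and 327, above both wildtype arrays.

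The rise of Arntl to 24 h passed in wildtype (1.74 ± 0.27, adjusted p = 0.00195) and in Socs2-null liver (2.54 ± 0.27, adjusted p = 0.00022). It was also above 0 h at 36 h in wildtype (1.13 ± 0.27, adjusted p = 0.0187) and in Socs2-null liver (2.57 ± 0.27, adjusted p = 0.000191). The wildtype call at 36 h was lost when the first (0.0558) or the other (0.144) wildtype array at 0 h, or the first at 36 h (0.0936), was left out. With the mean of both Arntl probe sets the change was 0.51 (adjusted p = 0.0504). From 24 h to 36 h Arntl stood at -0.61 ± 0.27 in wildtype (adjusted p = 0.313) and at 0.024 ± 0.27 in Socs2-null liver (adjusted p = 0.99). Between the genotypes at 36 h it stood at 1.03 ± 0.27 (adjusted p = 0.465), higher in both Socs2-null arrays but short of the threshold.

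Clock encodes the DNA-binding partner of ARNTL. Its intensities were 222 and 231 in wildtype and 239 and 228 in unoperated Socs2-null liver. At 24 h they were 504 and 515 against 478 and 508, and at 36 h 531 and 431 against 427 and 683. Every array after hepatectomy was above every array at 0 h, and the genotypes overlapped at each time. Clock rose to 24 h in wildtype (1.12 ± 0.19, adjusted p = 0.00246) and in Socs2-null liver (1.03 ± 0.19, adjusted p = 0.00303). It was still above 0 h at 36 h, by 1.03 ± 0.19 in wildtype (adjusted p = 0.00502) and 1.16 ± 0.19 in Socs2-null liver (adjusted p = 0.00189). Without wildtype 0 h replicate 1 the wildtype value at 36 h had an adjusted p of 0.0503.

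Npas2 encodes a relative of CLOCK that can take its place. The wildtype arrays had 23.1 and 22.5 at 0 h, then 36.1 and 33.5 at 24 h, then 30.4 and 26.2 at 36 h, each under the brightest tag control of the array. The Socs2-null arrays had 20.7 and 15.0 at 0 h, also under that control, but 108 and 51.2 at 24 h and 96.3 and 137 at 36 h. Thus Npas2 was above background in the 4 Socs2-null pools after hepatectomy and in no other pool. Against background it was at least 1.86-fold higher at 24 h and at least 2.89-fold higher at 36 h than at 0 h in Socs2-null liver. These rises passed the test (1.43 ± 0.24, adjusted p = 0.00236, and 1.96 ± 0.24, adjusted p = 0.000563).

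Compared with the wildtype pools, Npas2 in Socs2-null pools was at least 1.81-fold higher at 24 h (0.84 ± 0.24, adjusted p = 0.443) and at least 2.99-fold higher at 36 h (1.57 ± 0.24, adjusted p = 0.113). Neither difference passed, although the arrays did not overlap at either time. With the 36 h arrays alone the difference at 36 h passed (1.57, adjusted p = 0.0342), and so it did with the hybridization controls in the model (1.54, adjusted p = 0.00908). The 36 h difference passed without Socs2-null 24 h replicate 1 (0.00254) or replicate 2 (0.0027), the pair of arrays that lay furthest apart for this gene, with 0.00254 to 0.272 over all alternatives. The 24 h difference was 0.40 (adjusted p = 0.709) without Socs2-null 24 h replicate 1 and 1.28 (adjusted p = 0.0394) without replicate 2. With these arrays taken singly, Npas2 at 24 h was at least 2.62-fold (replicate 1) or at least 1.25-fold (replicate 2) above the wildtype pools, and at least 2.70-fold or at least 1.29-fold above Socs2-null liver at 0 h.

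Cry1 encodes the repressor that acts on the DNA-bound activators latest in the cycle. It read 52.0 and 51.6 in wildtype and 48.7 and 49.2 in Socs2-null liver at 0 h. After 24 h the readings were 240 and 193 in wildtype and 253 and 240 in Socs2-null pools. At 36 h the wildtype arrays read 110 and 118, between their values at 0 h and 24 h, and the Socs2-null arrays 234 and 279, on either side of their 24 h values. In order of level the pair of 0 h groups came lowest, wildtype at 36 h next, and the remaining 3 groups highest, where the arrays of the 3 groups overlapped or touched.

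Cry1 rose to 24 h by 1.77 ± 0.13 in wildtype (adjusted p = 2.86e-05) and by 2.02 ± 0.13 in Socs2-null liver (adjusted p = 9.12e-06). At 36 h it was above 0 h by 0.94 ± 0.13 in wildtype (adjusted p = 0.00129) and by 2.07 ± 0.13 in Socs2-null liver (adjusted p = 7.6e-06). From 24 h to 36 h it fell in wildtype (-0.83 ± 0.13, adjusted p = 0.0334) and stood at 0.051 ± 0.13 in Socs2-null liver (adjusted p = 0.958). The wildtype fall had adjusted p values of 0.0221 to 0.305 over the alternatives and lost its call in 11 of 24. Among these were the fits without any 1 of the 4 wildtype arrays at 24 h and 36 h (0.0786 to 0.139) and without any 1 of the 4 arrays at 0 h (0.0787 to 0.0969).

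The Cry1 level at 36 h differed between the genotypes by 1.07 ± 0.13 (adjusted p = 0.027), with both Socs2-null arrays above both wildtype arrays. This comparison and the wildtype fall from 24 h to 36 h share the wildtype arrays at 36 h, so they are not independent. The call was lost without any 1 of the 8 arrays at 0 h and 36 h (adjusted p 0.0667 to 0.101), and was kept without any 1 of the 4 arrays at 24 h. With the 36 h arrays alone the adjusted p was 0.253, at the same log2 change. The difference between the genotypes in the change from 24 h to 36 h was 0.89 ± 0.19 (adjusted p = 0.862) and in the change from 0 h to 36 h 1.13 ± 0.19 (adjusted p = 0.404), so that a difference between the time courses was not called.

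Cry2, the paralogue of Cry1, passed in no comparison. It read 149 and 173 in wildtype and 164 and 186 in Socs2-null liver at 0 h, 135 and 169 against 124 and 127 at 24 h, and 105 and 131 against 135 and 134 at 36 h. Both Socs2-null arrays at 24 h and at 36 h lay below both at 0 h. The change to 24 h in Socs2-null liver was -0.43 ± 0.14 with an adjusted p of 0.05002, just over the threshold, and it passed under 11 of 24 alternatives (0.0305 to 0.241 over all). The changes to 36 h were -0.40 ± 0.14 in wildtype (adjusted p = 0.0824) and -0.34 ± 0.14 in Socs2-null liver (adjusted p = 0.119).

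Per1 and Per2 encode repressors of the activator pair and are induced by many signals outside the clock. Both passed in no comparison of the model as fitted to the groups alone. Per1 read 138 and 159 in wildtype and 138 and 170 in unoperated Socs2-null liver. At 24 h it read 318 and 144 against 140 and 243, and at 36 h 132 and 149 against 255 and 130. A single array stood out in 3 of the groups, and the groups overlapped at each time. The standard error of its changes, 0.38, was larger than for any other member. Per2 read 97.3 and 122 against 77.4 and 116 at 0 h, 144 and 140 against 80.8 and 105 at 24 h, and 61.3 and 132 against 118 and 93.9 at 36 h. Its genotype difference at 24 h, where the arrays did not overlap, was -0.55 ± 0.28 (adjusted p = 0.632).

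Per3 encodes a period protein whose transcript follows the clock closely in peripheral tissues. It read 136 and 151 in wildtype and 123 and 162 in unoperated Socs2-null liver. At 24 h it read 34.0 and 50.2 against 28.4 and 34.8, and at 36 h 44.5 and 58.4 against 35.2 and 31.1. Every array after hepatectomy was below every array at 0 h. Both Socs2-null arrays at 24 h, and 1 array each of wildtype at 24 h and Socs2-null at 36 h, lay under the brightest tag control.

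Per3 fell to 24 h, with a change of -1.47 ± 0.17 in wildtype (adjusted p = 0.000369) and -1.73 ± 0.17 in Socs2-null liver (adjusted p = 9.58e-05), where it was at least 3.88-fold lower than at 0 h. It was still below 0 h at 36 h, at -1.24 ± 0.17 in wildtype (adjusted p = 0.00102) and -1.68 ± 0.17 in Socs2-null liver (adjusted p = 0.000114). Between the genotypes at 36 h it stood at -0.45 ± 0.17 (adjusted p = 0.665), with both Socs2-null arrays below both wildtype arrays.

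Nr1d2 encodes REV-ERB beta, a repressor of Arntl, Npas2 and Cry1. It read 981 and 967 in wildtype and 997 and 1095 in unoperated Socs2-null liver. At 24 h it read 164 and 395 in wildtype and 189 and 191 in Socs2-null pools, and at 36 h 601 and 614 in wildtype and 210 and 194 in Socs2-null pools. The wildtype arrays at 36 h thus lay between their values at 0 h and 24 h and above the Socs2-null arrays of the same time. The wildtype pools at 24 h differed from each other more than any other pair of arrays did for this gene.

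Nr1d2 fell to 24 h, with a change of -1.86 ± 0.28 in wildtype (adjusted p = 0.0019) and -2.37 ± 0.28 in Socs2-null liver (adjusted p = 0.000417). At 36 h it remained below 0 h in Socs2-null liver (-2.28 ± 0.28, adjusted p = 0.000557), and in wildtype it stood at -0.67 ± 0.28 (adjusted p = 0.138, or 0.00627 and 0.00625 without the first or the other wildtype array at 24 h). From 24 h to 36 h it stood at 1.20 ± 0.28 in wildtype (adjusted p = 0.114) and 0.084 ± 0.28 in Socs2-null liver (adjusted p = 0.968). Between the genotypes at 36 h the difference was -1.52 ± 0.28 (adjusted p = 0.236). It passed without wildtype 24 h replicate 1 (0.00133) or replicate 2 (0.00131) and with the 36 h arrays alone (0.0452), in a range of 0.00131 to 0.467. The wildtype change from 24 h to 36 h was 0.60 (adjusted p = 0.172) without wildtype 24 h replicate 1, which read 164, and 1.79 (adjusted p = 0.00315) without replicate 2, which read 395.

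**Figure D2:**
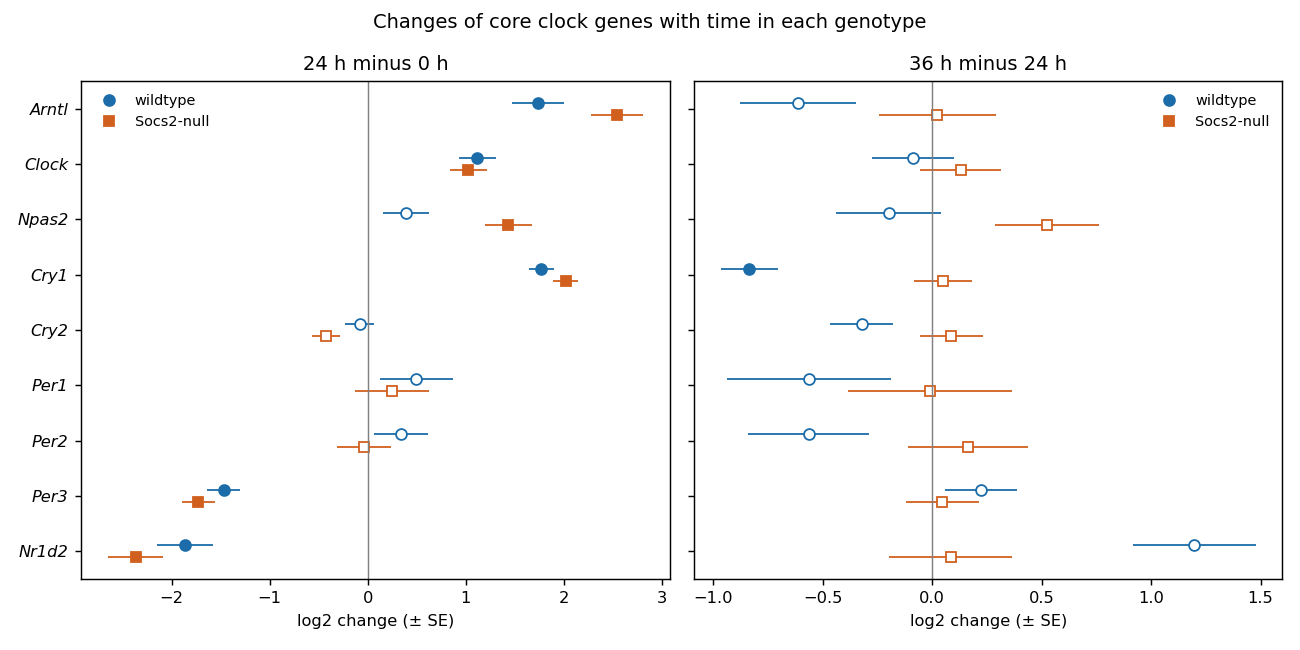
Log2 change ± standard error of the 9 core clock genes from 0 h to 24 h (left) and from 24 h to 36 h (right), wildtype as circles and Socs2-null as squares, filled where the limma adjusted p is under 0.05; the panels have different ranges. On the left the same 5 genes are filled in both genotypes, with Arntl at 1.74 and 2.54 and Nr1d2 at -1.86 and -2.37, and Npas2 is filled in Socs2-null alone, at 1.43 beside 0.39 in wildtype; on the right Cry1 in wildtype at -0.83 is the filled point.

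Counted over the 9 members, 3 rose and 2 fell from 0 h to 24 h in wildtype liver, where 25.8% of all genes were called, and the median change was 0.39 against -0.08 over all genes. In Socs2-null liver 4 rose and 2 fell, where 24.2% of all genes were called, with a median of 0.25 against -0.04. The genes called in wildtype, Arntl, Clock, Cry1, Per3 and Nr1d2, were called in the same direction in Socs2-null liver, and Npas2 in addition. At 36 h against 0 h, 3 rose and 1 fell in wildtype liver (15.2% of all genes called, median -0.069 against -0.065), and 4 rose and 2 fell in Socs2-null liver (20% of all genes called, median 0.24 against -0.026). These comparisons share their 0 h arrays within a genotype. From 24 h to 36 h, Cry1 was the only member called in wildtype liver, where 0.24% of all genes were called, and no member was called in Socs2-null liver by limma, where 0.00585% were and 0 members had an unadjusted p under 0.05. The medians of the members were -0.32 in wildtype and 0.084 in Socs2-null liver, against 0.0057 and 0.015 over all genes.

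Several calls at 36 h were lost when the mean of the hybridization controls, which fell with time, was put into the model, an alternative added after the data were seen. In wildtype at 36 h against 0 h the calls of Arntl (adjusted p = 0.874), Clock (0.355), Cry1 (0.135) and Per3 (0.109) were then lost, with log2 changes of 0.23, 0.79, 0.91 and -1.29. In Socs2-null liver those of Arntl (0.0863), Clock (0.208) and Npas2 (0.222) were lost, at 1.70, 0.93 and 0.84. The calls of Arntl, Clock, Cry1, Per3 and Nr1d2 at 24 h were kept in both genotypes. Per1, which was not called without this term, was called with it in both genotypes. It stood at 1.01 ± 0.22 (adjusted p = 0.00865) and 1.23 ± 0.28 (0.0136) to 24 h, and at 2.06 ± 0.47 (0.0443) and 2.28 ± 0.46 (0.0152) to 36 h, in wildtype and Socs2-null liver. Without the term wildtype Per1 stood at -0.069 ± 0.38 to 36 h. The standard error of wildtype Arntl to 36 h rose from 0.27 to 0.56 with it. All controls at 36 h lay below all at 0 h, and the slope of the term rests on differences within groups. No conclusion on Per1 or on the lost calls is drawn from this fit.

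At 0 h no member was called between the genotypes by limma, 0% of all genes were called, and 0 members had an unadjusted p under 0.05. At 24 h no member was called either, with 0.0117% of all genes called and 1 member, Npas2, at an unadjusted p under 0.05. At 36 h, 1 of 9 members was called and 0.0234% of all genes, that is 4 of 17097, and 5 members had an unadjusted p under 0.05, against 1101 of all genes. The members' median difference, Socs2-null minus wildtype, was -0.014 at 0 h, -0.20 at 24 h and 0.18 at 36 h, against -0.037, -0.017 and -0.0081 over all genes. In the mean over the 3 times no member was called and 0.0292% of all genes were, with 4 members at an unadjusted p under 0.05. Npas2 stood there at 0.74 ± 0.14 (adjusted p = 0.143) and Cry1 at 0.40 ± 0.076 (adjusted p = 0.141). The test of the difference between the time courses called no member. For 0 h to 24 h it called 0% of all genes, for 0 h to 36 h 0.00585% and for 24 h to 36 h 0%, and 1, 4 and 2 members had an unadjusted p under 0.05. With an array left out, the difference in the change from 0 h to 36 h passed for Npas2 (1.77, adjusted p 0.0235 or 0.0249 without the first or the other Socs2-null array at 24 h) and for Nr1d2 (-1.62, adjusted p 0.0311 or 0.031 without the first or the other wildtype array at 24 h). In the mean over the times the same arrays left out gave calls for Npas2 (adjusted p 0.0438 or 0.00738) and, without the first wildtype array at 24 h, for Nr1d2 (adjusted p = 0.00511).

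**Figure D3:**
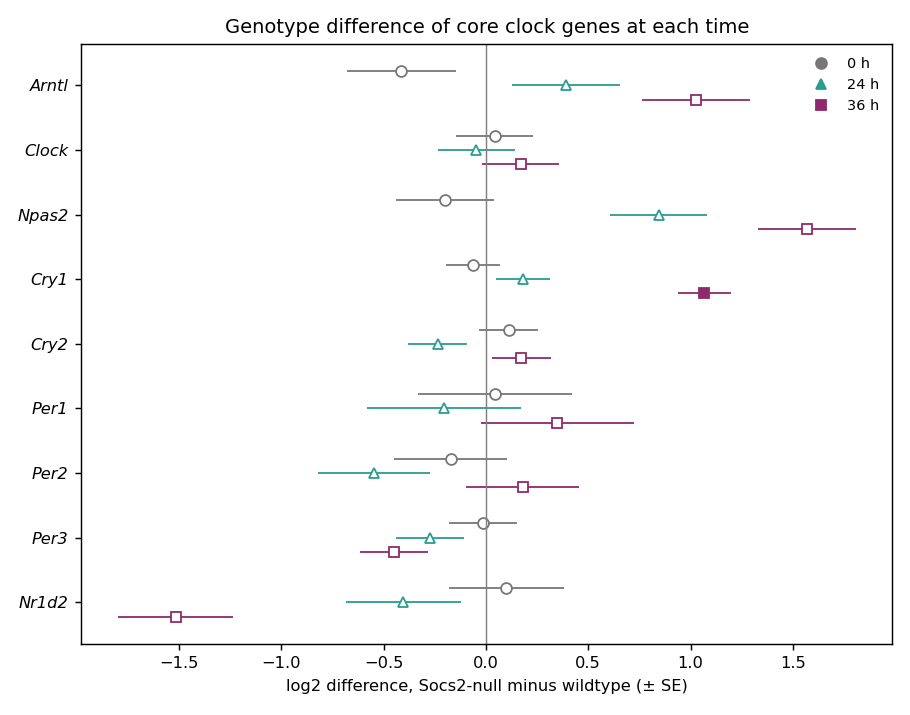
Difference between the genotypes, Socs2-null minus wildtype, as log2 change ± standard error for the 9 core clock genes at 0 h (circles), 24 h (triangles) and 36 h (squares), filled where the limma adjusted p is under 0.05. Cry1 at 36 h, at 1.07, is the filled point, and Npas2 at 1.57 and Nr1d2 at -1.52 lie further from 0 without passing.

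Several members had further probe sets, which read the same gene at lower intensities. Clock had 3, and all had higher means at 24 h than at 0 h in both genotypes, by 0.28 to 0.50 in wildtype and 0.20 to 0.88 in Socs2-null liver. Per3 had 4, and all were lower at 24 h, by -0.67 to -0.073 in wildtype and -0.55 to -0.039 in Socs2-null liver, with 1 of them under the brightest tag control on all 12 arrays. The further Nr1d2 probe set was under that level on all 12 arrays and stood at -0.49 and -0.27. For Arntl the further probe set, 1457740_PM_at, never exceeded 53.8 and stood at -0.044 in wildtype and 0.031 in Socs2-null liver, so the rise of Arntl rests on 1 probe set. The further Npas2 probe set, 1421036_PM_at, stood at -0.23 in wildtype and 0.32 in Socs2-null liver, and at 0.31 between the genotypes at 36 h, with 9 of 12 arrays under the brightest tag control. For Per2 the further probe set, 1417603_PM_at, stood at -0.072 and -0.081. Cry1, Cry2 and Per1 had a single probe set each, and a probe set that names Per2 together with another gene was left out.

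**Figure D4:**
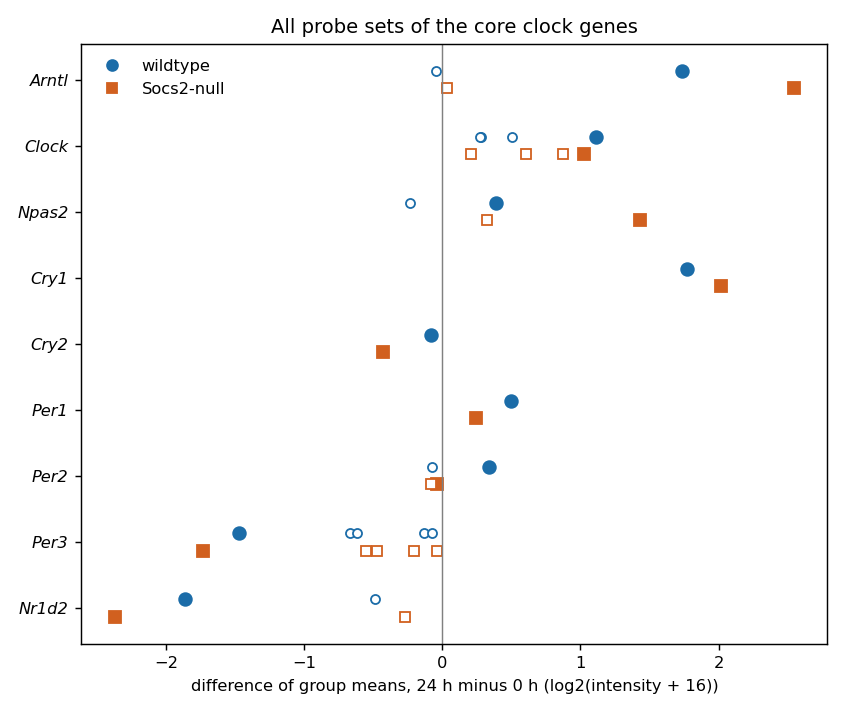
Difference of group means of log2(intensity + 16) from 0 h to 24 h for all 20 probe sets of the core clock genes, wildtype as circles and Socs2-null as squares; large filled points are the probe sets used and small open points the others. The probe sets used lie furthest from 0 for Arntl, Clock, Per3 and Nr1d2, and the further probe sets of Arntl lie at -0.044 and 0.031.

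Of 23 other clock genes listed, 20 were measured. Among the loop regulators, Rora, which encodes an activator that competes with the REV-ERB proteins, rose. It read 440 and 400 in wildtype and 404 and 418 in Socs2-null liver at 0 h, and 413 and 425 against 687 and 641 at 24 h. At 36 h it read 991 and 984 against 731 and 1189. Rora rose between 24 h and 36 h in wildtype (1.21 ± 0.18, adjusted p = 0.0283), a call lost in 10 of 24 alternatives (0.00794 to 0.397), among them the fits without any 1 of the 8 arrays at 0 h and of wildtype at 24 h and 36 h. In Socs2-null liver Rora was above 0 h at 24 h (0.67 ± 0.18, adjusted p = 0.022), a call lost in 6 of 24 (0.00229 to 0.246), among them without any 1 of the Socs2-null arrays at 0 h and 24 h. With the mean of its probe sets these 2 changes were 0.36 (adjusted p = 0.172) and 0.26 (adjusted p = 0.105). At 24 h the Socs2-null arrays were above both wildtype arrays, a difference of 0.64 ± 0.18 that was not called (adjusted p = 0.443). Ciart, which encodes a repressor of the activator complex, fell to 24 h in Socs2-null liver (-1.55 ± 0.44, adjusted p = 0.0314, or 0.129 and 0.167 without Socs2-null replicate 1 at 24 h or replicate 2 at 0 h) and stood at -0.63 ± 0.44 in wildtype (adjusted p = 0.314).

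Among the genes of protein turnover, Usp2, which encodes a deubiquitinase with a strong daily rhythm in liver, read 478 and 535 in wildtype and 475 and 651 in Socs2-null liver at 0 h, and 202 and 395 against 102 and 218 at 36 h. It fell in Socs2-null liver, with changes of -1.54 ± 0.35 to 24 h (adjusted p = 0.0114) and -1.79 ± 0.35 to 36 h (adjusted p = 0.00639). Without Socs2-null 0 h replicate 2 these had adjusted p of 0.0798 and 0.0537, and without Socs2-null 24 h replicate 2 the first had 0.0718. In wildtype it stood at -0.84 ± 0.35 (adjusted p = 0.104) and -0.80 ± 0.35 (adjusted p = 0.156). Btrc, which encodes a ubiquitin ligase subunit that marks PER proteins for decay, fell to 36 h in wildtype (-0.42 ± 0.12, adjusted p = 0.0311) and in Socs2-null liver (-0.58 ± 0.12, adjusted p = 0.00531). The wildtype call was lost without any 1 of the 4 wildtype arrays compared (0.0571 to 0.248) and in 9 of 23 alternatives.

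Among the cofactors, Sfpq, which encodes an RNA- and DNA-binding partner of the PER complex, rose to 24 h by 0.97 ± 0.17 in wildtype (adjusted p = 0.00319) and 1.03 ± 0.17 in Socs2-null liver (adjusted p = 0.00185). Nfyb, a subunit of the CCAAT-binding factor, fell to 24 h in wildtype liver (-0.99 ± 0.20, adjusted p = 0.00621, or 0.0575 without wildtype 0 h replicate 1). In all, 1 of the 20 genes rose and 1 fell to 24 h in wildtype, where 25.8% of all genes were called, and 2 rose and 3 fell in Socs2-null liver, where 24.2% were. To 36 h 2 rose and 1 fell in wildtype (15.2% of all genes called) and 2 rose and 2 fell in Socs2-null liver (20% called), so that these counts were near or below the shares of all genes. None was called between the genotypes by limma at any time. Those at an unadjusted p under 0.05 numbered 0, 4 and 2 at 0, 24 and 36 h, against 847, 1408 and 1101 of all 17097 genes. Their median changes to 24 h were -0.047 in wildtype and 0.032 in Socs2-null liver.

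Dbp is an output factor that ARNTL and CLOCK switch on directly, and its protein binds elements of the D-box kind. Binding to the Per3 sequence was not tested. Dbp read 833 and 1068 in wildtype and 850 and 1147 in Socs2-null liver at 0 h. It read 41.7 and 47.2 against 32.1 and 29.8 at 24 h, and 125 and 234 against 33.2 and 39.0 at 36 h. Both Socs2-null arrays at 24 h and 1 at 36 h lay under the brightest tag control. Dbp fell to 24 h in wildtype (-3.99 ± 0.24, adjusted p = 6.1e-06) and in Socs2-null liver, where it was at least 27.1-fold lower than at 0 h (adjusted p = 4.05e-06). It rose from 24 h to 36 h in wildtype (1.64 ± 0.24, adjusted p = 0.0265), a call lost in 10 of 24 alternatives (0.00561 to 0.358), among them without any 1 of the 4 arrays at 0 h, of the wildtype arrays at 24 h, or without wildtype 36 h replicate 2. At 36 h it was lower in Socs2-null than in wildtype liver (-1.85 ± 0.24, adjusted p = 0.0333), and this call was lost in 14 of 24 alternatives (0.0027 to 0.293). These include the fits without any 1 of the 4 arrays at 0 h, of the wildtype arrays at 24 h, of the Socs2-null arrays at 36 h, or without wildtype 36 h replicate 2 (-1.44, adjusted p = 0.101).

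Tef, a relative of Dbp, fell to 24 h in wildtype (-1.46 ± 0.20, adjusted p = 0.000922) and in Socs2-null liver (-2.04 ± 0.20, adjusted p = 9.58e-05). Nfil3, which encodes a repressor that binds the same kind of element, rose in wildtype (1.14 ± 0.23, adjusted p = 0.00638) and in Socs2-null liver (1.79 ± 0.23, adjusted p = 0.000601). The wildtype call was lost without wildtype 0 h replicate 2 (0.98) or wildtype 24 h replicate 1 (0.885). Hlf, a further relative of Dbp, fell in wildtype (-0.80 ± 0.22, adjusted p = 0.0204) and stood at 0.17 ± 0.22 in Socs2-null liver (adjusted p = 0.604). The Hlf call was lost without the first (0.0885) or the other (0.112) wildtype array at 0 h or the other at 24 h (0.13).

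The genes whose profiles were most like those of the members were sought among 1413 other genes with group means that spanned at least 1 on the log2 scale, by Pearson's r over the 12 arrays, which share the groups and any difference between the arrays. For Cry1 they were Slc35b1 (0.978), Poglut2 (0.976) and Sptbn1 (0.973). Slc35b1, which encodes a nucleotide transporter of the endoplasmic reticulum, averaged 1205, 2210 and 1876 in wildtype and 1103, 2498 and 2357 in Socs2-null liver at 0, 24 and 36 h. For Nr1d2 they were Slc7a2 (0.969), Gjb1 (0.955) and Coq10b (0.951). Slc7a2, which encodes a transporter of cationic amino acids, averaged 3544, 1434 and 2557 in wildtype and 3868, 1023 and 1307 in Socs2-null liver, with the same order of the groups at 36 h as Nr1d2.

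For Npas2 the most alike were Ppp1r3b (0.952), Rnf144a (0.932) and Celsr1 (0.912). Ppp1r3b, which encodes the liver glycogen-targeting subunit of a protein phosphatase, averaged 992, 1025 and 1010 in wildtype and 841, 1776 and 1998 in Socs2-null liver. For Arntl they were Gtf3c6 (0.978), Srsf6 (0.977) and Elavl1 (0.967), which serve transcription by RNA polymerase III, splicing and RNA stability. For Clock they were Nudt5 (0.984), Dynll1 (0.977) and Mad2l2 (0.977), and for Per3 Ppargc1b (0.987), Pcsk4 (0.984) and Slc38a3 (0.983). Ppargc1b, a coactivator of mitochondrial and lipid genes, averaged 334, 106 and 153 in wildtype and 379, 102 and 94.0 in Socs2-null liver. Cry2, Per1 and Per2 had group means that spanned 0.52 to 0.56 and were not compared in this way.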

How the data were processed

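Total RNA of 3 animals per pool was made into biotinylated cRNA, per the labels' protocols. The values are the authors' deposited intensity values on a linear scale, 1 to 24717, with 12 values equal to 1. How background was corrected and arrays were summarized and scaled is not given in the sources used here. Of 45141 probe sets the platform annotation names a single gene for 28898, more than 1 for 551 and none for 15588, beside 104 controls. The brightest probe set on average stood for each of 17097 genes.

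Log2(intensity + 16) was fitted with limma 3.58.1 (group means of 12 arrays, eBayes with trend and robust, statmod 1.5.0, R 4.3.3), two-sided, Benjamini-Hochberg adjusted over all genes, in 13 comparisons, and checked on simulated data. Bounds ("at least") are against the brightest of 17 tag controls of an array, on log2 intensity without the added 16. Figures used Python 3.11.15 and matplotlib 3.10.9. The arrays' number limits precision. The members and lists were chosen with earlier results of these data known. All members were named, then other clock genes past the threshold (at most the 4 with the smallest p per comparison; Ciart was named beyond these, after its values were seen), 4 output factors in brief, and 3 most alike genes per member. Alternatives were quantile normalization, median centring, pseudocounts of 1 and 64, dropping dim genes (25% and 50%), the mean of a gene's probe sets, leaving out cross-hybridizing probe sets, plain eBayes, a replicate block, the compared arrays alone, each array left out, and, added after the data were seen, the hybridization controls as a covariate.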

Additional observations from a re-analysis of the deposited data

How the results depend on the processing

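Of 1159 values of 49 log2 changes under up to 24 alternatives, 1089 kept their direction and side of the threshold, 32 lost their call, 31 gained one and 7 turned direction. The 49 are a chosen list without Per1 and Per2, so the Per1 calls gained with the covariate are not counted. The 7 values that turned direction belong to changes near 0 from 24 h to 36 h in Socs2-null liver. Arntl there was -0.027 with median centring, -0.43 with the hybridization covariate and -0.25 to 0.30 with arrays left out, Cry1 was -0.00064 with centring and -0.070 to 0.17 with arrays left out, and Nr1d2 was -0.31 with the covariate. Counts of members called that moved were those for Socs2-null minus wildtype at 36 h, 1 in the report, which was 2 with the covariate or with the compared arrays alone and 0 to 2 with arrays left out, for wildtype 36 h minus 0 h, 4 in the report, which was 1 with the covariate (Per1, with the 4 of the report lost) and 2 to 5 with arrays left out, for wildtype 36 h minus 24 h, 1 in the report, which was 0 with the replicate block, the covariate or the compared arrays alone and 0 to 1 with arrays left out, and for the difference in 36 h minus 0 h, 0 in the report, which was 1 with the compared arrays alone and 0 to 1 with arrays left out. Arrays left out gave 0 to 1 at 24 h and in the mean of the times. The cause was not tested. The deviations of same-numbered arrays correlated at -0.50 to 0.35, over 0.1 in 3 of 15 pairs of groups. The replicate numbers thus did not pair the arrays in the same way over the groups. A batch under another pairing of the arrays was not tested. With the block Cry1 at 36 h kept its call between the genotypes (1.07, adjusted p = 0.0435) and lost it in wildtype from 24 h to 36 h (adjusted p = 0.0583). Members near background (Npas2, Per3, Arntl at 0 h) have changes limited by signal, and dropping the dimmest 50% of genes removes Npas2 and Per3 from the test.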
